A study of Mus musculus with 8 samples.

Results

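Peaks of YTHDF3 binding were examined on genes of 9 RNA-binding, splicing and helicase families. The families were the SR splicing factors (Srsf), the heterogeneous nuclear ribonucleoproteins (Hnrnp), the SF3A and SF3B subunits of the U2 snRNP (Sf3a, Sf3b), the pre-mRNA processing factors (Prpf), the DEAD-box and DEAH-box helicases (Ddx, Dhx), the CELF proteins (Celf) and the RNA-binding motif proteins (Rbm). Members were all peaks whose deposited gene name begins with 1 of these stems, and Rbm15 and Rbm15b, which belong to the m6A methyltransferase complex, were left out. They came to 580 of the 87096 target peaks of the study, with 127 and 125 peaks in the normal libraries and 168 and 160 in the starved libraries. The peaks carried 65 gene names of 8612 in all and lay in 291 of 39979 regions.

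YTHDF3 RIP-seq, in which an antibody to the endogenous protein pulls down the RNA it binds, was performed in mouse embryonic fibroblasts (MEFs). The MEFs were wild type, on the C57BL/6 strain, isolated at 13.5 days post coitum and used after 5 to 6 passages. Normal cells were untreated, and starved cells were kept in nutrient-deprived medium for 2 h, with 2 replicates per condition. Each of the 4 IP libraries was compared with input RNA, and the 8 samples include no IP with another antibody. The labels do not say whether the replicates were separate embryos, so that the spread between them may be technical.

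YTHDF3 is a cytoplasmic reader of N6-methyladenosine (m6A), the internal mRNA mark laid down mainly in a sequence context with GGAC at its core. RNA helicases of the DEAD and DEAH families use ATP to remodel RNA and RNA-protein complexes, and they act at every step from ribosome assembly and splicing to translation and decay. SR proteins and hnRNPs bind exons and introns to steer splice site choice, SF3A and SF3B hold the U2 snRNP on the branch site, and PRPF proteins form the core of the spliceosome. The mRNAs of many of these regulators are themselves regulated after transcription.

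A target peak had an IP/input fold of at least 2 with p under 0.0001. Target peaks held 8818619 to 19271667 IP reads per library, and the member peaks held 60083 to 158703. The starved lists were longer, with 23088 and 24701 target peaks against 17364 and 21943 in the normal lists. Member peaks were 0.73% and 0.57% of the target peaks in normal cells and 0.73% and 0.65% in starved cells. The median fold of member peaks was 2.87 and 2.76 in normal libraries and 2.75 and 2.84 in starved libraries, against 2.97 to 3.11 over all target peaks. Where a peak had 3 or fewer input reads, 3 were used, which makes its fold a lower bound, and this held for 12.0% to 20.8% of member peaks. The deposited lists hold only enriched peaks, so that a gene without a peak may be expressed or bound below the threshold. The sequencing depth is not known.

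The deposited name is that of the nearest promoter, and it often pointed to a gene next to the bound one. By the GENCODE vM21 annotation of mm10, 334 of the 580 member peaks (57.6%) touched an exon of the gene they are named for, against 54.9% over all target peaks. Another 177 touched only exons of other genes and 69 touched no exon. Of the 65 names, 48 had at least 1 peak on their own exons and 17 had none. The names without any included Ddx19a, Prpf40b, Celf3, Rbm3, Ddx25, Ddx41, Hnrnpa3 and Hnrnpk. Peaks on own exons are therefore given apart from the others. They leave out peaks that touch a gene's exons under another name, whereas counts of exons touched take peaks of any name. Strand was not used, so that overlapping genes cannot be separated.

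The sequences below come from within peaks of the named regions. They are stretches of mm10 around a GGAC of the peak with most IP reads in that region. They are written on the strand of the bound gene, with GGAC in capitals. In the order printed, the GGAC lay 131, 201, 197, 101, 85 and 61 bases from the centre of the peak's best window. Those of Ddx6, Prpf8 and Gpr149 thus lay outside this 200 bp window, and that of Snx27 at or beyond its edge. The first 5 come from the 6 genes whose regions, among those picked by the rule given with the methods, had most IP reads on annotated exons, and a stretch could be placed within an exon in 5 of them. Dhx37 was added after its values were seen, as the gene with most peaks. Stretches are 60 bases where these lie within 1 coding exon near the centre and 30 bases elsewhere.
Ddx6, 3' UTR, plus strand, chr9:44637077-44637106: agggccggaaggtGGACtagtgatggcagc
Prpf8, coding exon, plus strand, chr11:75491597-75491626: cccgccgggccttGGACataccccttgtca
Gpr149 (peak named Dhx36), coding exon, minus strand, chr3:62530868-62530927: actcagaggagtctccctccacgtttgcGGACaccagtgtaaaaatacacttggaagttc
Snx27 (peak named Celf3), 3' UTR, minus strand, chr3:94498707-94498736: gtctctggggaagGGACttcccctcccagc
Dhx30, coding exon, minus strand, chr9:110092896-110092955: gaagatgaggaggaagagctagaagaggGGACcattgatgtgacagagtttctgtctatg
Dhx37, coding exon, minus strand, chr5:125425692-125425751: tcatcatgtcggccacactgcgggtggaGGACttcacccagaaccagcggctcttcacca
The Prpf8 peak was the largest of the 6, with 13683 IP reads over 5550 bp and 32 GGAC, whereas the Dhx37 peak had 319 IP reads over 690 bp and 6 GGAC. A GGAC is a description of the letters in these stretches and does not mark a methylated site.

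GGAC was counted under member peaks and under all target peaks. Of the best 200 bp windows that could be given a strand, 58.2% and 54.0% held GGAC on that strand in normal libraries and 58.3% and 59.4% in starved libraries. The shares over all target peaks were 58.9% and 55.6% in normal libraries and 56.7% and 57.4% in starved libraries. The member windows averaged 52.3% ± 1.1 G and C in normal cells and 52.9% ± 1.6 in starved cells (SD, n = 2), and all windows 53.0% ± 1.3 and 52.7% ± 0.75.

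The families differed widely in how many of their genes were bound. The DEAH helicases stood highest, with a peak on an exon of 14 of 16 annotated protein-coding genes (87.5%), and the SR proteins lowest, with 0 of 11. Between them lay the Celf genes with 3 of 6, the Ddx genes with 16 of 37, the Rbm genes with 16 of 37, the Hnrnp genes with 8 of 20, the Sf3a genes with 1 of 3, the Prpf genes with 3 of 13 and the Sf3b genes with 1 of 6. Over all families this was 62 of 149 genes (41.6%), against 31% of all 21924 protein-coding genes. An exon peak in every library was rarer, with 16 of 149 family genes (10.7%) against 14.1% of all protein-coding genes. These 16 were Dhx30, Dhx33, Dhx35, Dhx37, Dhx8, Ddx31, Ddx51, Ddx6, Prpf4, Celf1, Celf2, Rbm12, Rbm14, Rbm19, Rbm47 and Rbm4b. With each library left out in turn, 49 to 60 family genes had an exon peak, the fewest without starved replicate 1.

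**Figure D1:**
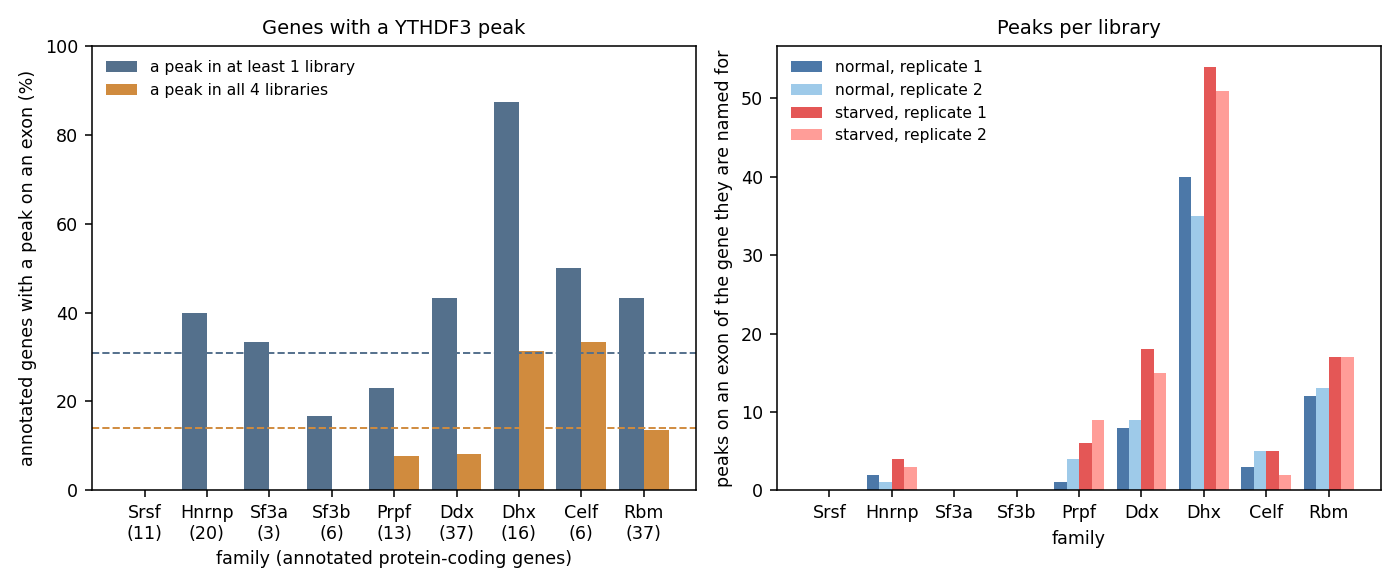
Left, percent of the annotated protein-coding genes of each family (number in parentheses) with a YTHDF3 peak on an exon in at least 1 library (blue bars) and in all 4 libraries (orange bars), with dashed lines at 31% and 14.1%, the shares over all protein-coding genes. Right, the number of peaks on an exon of the gene they are named for, by family and library, where the Dhx family leads with 35 to 54 peaks.

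The families with the highest and the lowest share also had the longest and the shortest coding sequences. The median coding length was 3284 bp for Dhx genes and 786 bp for Srsf genes, against 1176 bp over all protein-coding genes. An exon peak was found on 14.0% of all genes with a coding length under 1000 bp, on 34.6% from 1000 to 2000 bp, on 49.2% from 2000 to 3000 bp, on 60.6% from 3000 to 5000 bp and on 65.6% from 5000 bp. The family genes in the same length classes had 13.6% (3 of 22), 33.3% (22 of 66), 53.8% (21 of 39), 75.0% (15 of 20) and 50% (1 of 2). The part of length in the differences between families was not tested.

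Among the DEAH helicases the signal was concentrated on Dhx37, a helicase of small ribosomal subunit assembly, and Dhx30, a helicase linked to mitochondrial ribosome assembly. Dhx37 (chr5:125413858-125434121 on the minus strand, by its longest coding transcript) had 14 and 15 peaks on its own exons in normal libraries and 17 and 16 in starved libraries, with 2067, 2429, 4900 and 3909 IP reads in all. The peaks touched 20, 21, 23 and 25 of its 27 exons, and 11 exons were touched in all 4 libraries. Dhx30 (chr9:110084320-110101087, minus strand) had 12, 9, 13 and 10 peaks in the same order of libraries, with 3767, 3521, 8447 and 6138 IP reads. They touched 18, 15, 19 and 19 of 19 exons, 15 of them in every library. Both genes were thus covered along their length, and the folds of their peaks were moderate, at 2.01 to 6.32 for Dhx37 and 2.06 to 5.17 for Dhx30.

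**Figure D2:**
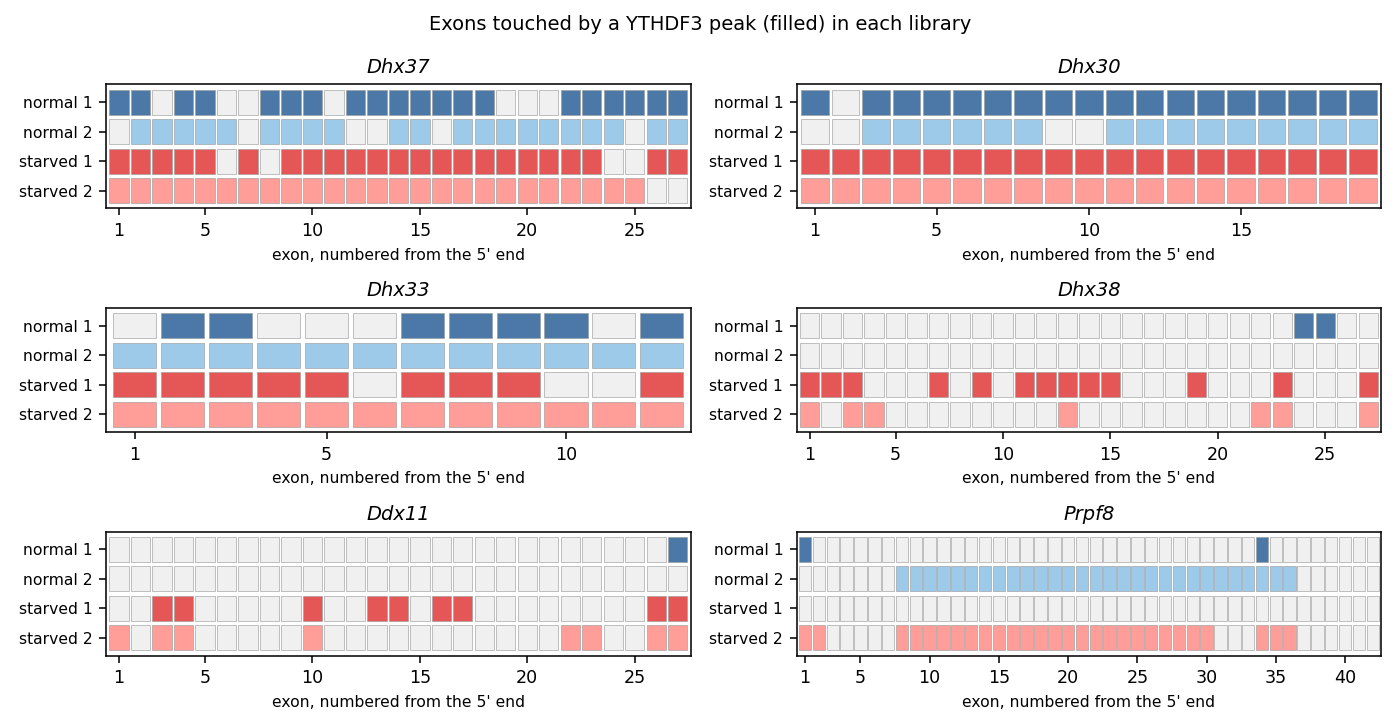
Exons of 6 family genes, numbered from the 5' end on the transcript with the longest coding sequence, by library, where a filled box is an exon touched by a YTHDF3 peak. Dhx37 and Dhx30 were touched along most of their exons in every library, Dhx38 and Ddx11 mostly in starved libraries and Prpf8 mostly in the replicate 2 libraries.

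Dhx33, a nucleolar helicase, had 2 and 6 peaks in normal libraries and 5 and 6 in starved libraries. All 12 of its exons were touched in both replicate 2 libraries, against 7 and 9 in the replicate 1 libraries, so that the replicates of a condition differed more than the conditions. Dhx38, the helicase that drives the second step of splicing, had 2 and 0 peaks in normal libraries and 12 and 6 in starved libraries. It held 60 and 0 IP reads in normal peaks and 1232 and 745 in starved peaks, and 2, 0, 13 and 7 of 27 exons were touched. Dhx35 had a single small peak on its own exons in each library, with 36, 68, 53 and 35 IP reads. Those of normal replicate 2 and starved replicate 1 shared a region, and the other peaks lay elsewhere on the gene. Dhx8, which releases spliced mRNA from the spliceosome, had 0, 3, 1 and 3 peaks named for it. Dhx9 and Dhx16 had 1 peak each, both in normal replicate 1, with 15 and 92 IP reads. Dhx36, which unwinds G-quadruplexes, had 1 peak of 18 IP reads on its own exons, and its other 5 peaks touched Gpr149. No exon of Dhx29, a helicase of translation initiation, or of Dhx58, a regulator of antiviral sensing, carried a peak.

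In the DEAD-box family, Ddx6 held most of the reads. Ddx6, a helicase of processing bodies that acts in mRNA decay and translational repression, had 4 and 3 peaks on its own exons in normal libraries and 7 and 2 in starved libraries, with 5812, 10094, 13508 and 760 IP reads. Most of these reads lay in 1 region over its 3' UTR (chr9:44636271-44639800), with 5286, 9032 and 11173 IP reads at folds of 2.16, 2.03 and 2.29 in the first 3 libraries. In starved replicate 2 the region rested on a peak of 21 IP reads over 1 input read. The Ddx6 folds in the other 3 libraries lie just above the threshold of 2, and an 887 bp stretch of the region has a copy on chromosome 2 with 95.9% identity, so that its reads may be shared. Ddx11, a DNA helicase of sister chromatid cohesion, had 2 and 0 peaks in normal libraries and 7 and 7 in starved libraries, all small, with 47, 0, 329 and 242 IP reads. Ddx51, which acts in rRNA processing, had 1 to 3 peaks in every library, with 33 to 150 IP reads. Ddx17 had 3 peaks in normal replicate 2 alone. Ddx3x, Ddx5 and Ddx21, abundant helicases of translation, splicing and ribosome assembly, had no peak on an exon.

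The Prpf family rested on Prpf4 and Prpf8. Prpf4, a protein of the U4/U6 snRNP, had 0 and 2 peaks named for it in normal libraries and 5 and 5 in starved libraries. These held 0, 223, 567 and 545 IP reads. Peaks of any name touched 1, 4, 10 and 10 of its 14 exons. Prpf8, the scaffold of the spliceosome's catalytic core, was bound over 29 and 28 of its 42 exons in the replicate 2 libraries and over 2 and 0 in the replicate 1 libraries. Its peaks held 539 and 9224 IP reads in normal libraries and 0 and 16005 in starved libraries, at folds of 2.06 to 2.63. The presence of the Prpf8 peaks thus followed the replicate number and not the condition, with folds just above the threshold. Prpf3 had 1 peak of 17 IP reads.

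Most Rbm and Celf peaks were small. Rbm19, a nucleolar protein of pre-rRNA processing that overlaps Gm10390, had 2 and 3 peaks named for it in normal libraries and 5 and 8 in starved libraries. These held 256, 235, 1038 and 1022 IP reads. Peaks of any name touched 10, 8, 16 and 18 of its 24 exons. Rbm4b had 3, 2, 2 and 4 peaks with 86 to 227 IP reads, and its highest fold of 10.8, in starved replicate 1, rested on 8 input reads. Rbm12 had 1, 3, 3 and 2 peaks with 108 to 788 IP reads, in peaks that also touch exons of Cpne1 and Gm28036. Rbm47, a cofactor of C-to-U RNA editing, had 2, 2, 2 and 0 peaks named for it. Celf2, which binds GU-rich RNA, had 2, 5, 3 and 1 peaks with 28 to 221 IP reads, and Celf1 had 396 and 692 IP reads in the replicate 1 libraries and no peak named for it in the others. No exon of Rbm25 or Rbm39, both splicing factors, or of the cold-induced Rbm3 carried a peak.

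**Figure D3:**
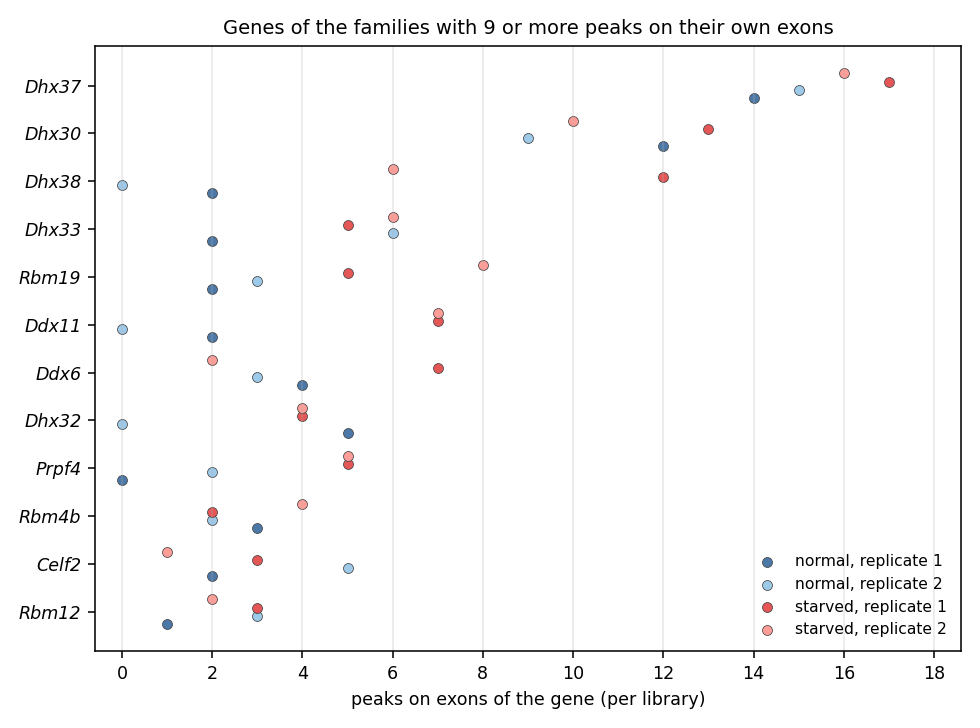
Number of target peaks on exons of the gene they are named for, by library (points; blue normal, red starved), for the 12 family genes with 9 or more such peaks in all. Dhx37 and Dhx30 have 9 to 17 peaks in every library, and Dhx38, Ddx11, Prpf4 and Rbm19 have more in both starved than in both normal libraries.

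The hnRNP and SF3 genes carried few peaks. Hnrnpa0, an intronless gene whose protein binds AU-rich RNA, was singled out after its values were seen, as it held 1 large peak in 3 libraries with 13690, 12808 and 21480 IP reads over 4563, 5952 and 5477 input reads in normal replicates 1 and 2 and starved replicate 2. Its folds were 2.42, 2.15 and 2.61, and no peak was listed in starved replicate 1. Hnrnpab, Hnrnpf, Hnrnph1, Hnrnpu and Hnrnpul1 had 1 own peak each, with 16 to 356 IP reads, and Hnrnpr had 2. Hnrnpa3 had a region of 6899, 11773 and 11871 IP reads in 3 libraries (chr2:75638231-75640560) that touched no annotated exon. Exons of Hnrnpa1, Hnrnpa2b1, Hnrnpc, Hnrnpk, Hnrnpl and Hnrnpm carried none. Of the SF3 genes, Sf3a1 and Sf3b3 each had an exon peak in at least 1 library and the other 7 had none. Of 58 genes listed by their role, 21 had a peak named for them, against 7584 of 21924 protein-coding genes. A peak on their own exons was found in 15 of the 21, against 5890 of 8612 gene names over all target peaks.

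Several names with many peaks belonged to their neighbours. All 24 peaks named Ddx19a, an mRNA export helicase, were off its exons, with St3gal2 and Ddx19b as the genes touched. All 28 named Prpf40b lay off its exons, on Fmnl3 where they touched an exon. Of 62 peaks named Dhx32, 49 were off its exons, on Adam12. The 11 peaks named Celf3 led to Snx27, the 10 named Rbm3 to Tbc1d25, the 9 named Ddx25 to Cdon and the 8 named Ddx41 to Fam193b. Of 24 peaks named Rbm4, 7 touched its exons, and its largest region lay on Rbm14, another member of the family, with 5764, 4910, 9094 and 6544 IP reads.

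The comparison of starved with normal cells addressed which mRNAs gain or lose YTHDF3 on nutrient deprivation. A region with a peak in all 4 libraries was found in 31 of 291 member regions (10.7%), against 16.3% of all regions. Of these 31, 19 touched own exons of 6 genes in at least 1 library, with 7 in Dhx37, 6 in Dhx30, 3 in Dhx33 and 1 each in Ddx6, Ddx56 and Rbm4b. The Ddx56 region did so through its starved peaks alone. The other 12 included 4 on St3gal2 and 1 on Rbm14. Another 152 member regions had a peak in only 1 library, 62 in 2 and 46 in 3. The matching counts over all regions were not made, so that these are not set against a background.

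None of the 31 member regions passed a test of change. No region moved by 1.8-fold or more the same way in replicate 1 and in replicate 2, where 0.367% of all 6531 regions rose and 0.352% fell. In edgeR's quasi-likelihood test of the IP/input ratio, 0 of 31 passed at an adjusted p of 0.05, with 0 at an unadjusted p under 0.05 and an adjusted p of 0.999 throughout, where 0.0153% of all regions were higher and 0% lower. The DESeq2 test called 0 as well. The log2 change of the ratio lay between -0.78 and 0.30 with a median SE of 0.28, and with 2 replicates per condition a change within such an error cannot be told from none. Taken alone, IP reads per base were called in 0 of 31 (lowest adjusted p = 0.564 in edgeR's quasi-likelihood test, and 0 regions at an unadjusted p under 0.05), where 0.184% of all regions were higher and 0.934% lower. Input reads per base were also called in 0 of 31 (lowest adjusted p = 0.56, and 1 region at an unadjusted p under 0.05 in the same test), where 0.214% were higher and 0.766% lower. In bulk RNA, fewer cells and less RNA per cell cannot be told apart.

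The direction of change was also counted. The fold was higher after starvation in both replicates in 10 of 31 member regions (32.3%, against 27.3% of all regions) and lower in both in 9 (29.0%, against 25.3%). IP reads per base were higher in both replicates in 13 (41.9%, against 34.9% of all regions) and lower in 7 (22.6%, against 33.7%). Input reads per base were higher in 13 (41.9%, against 33.4%) and lower in 6 (19.4%, against 29.7%). These shares of members were not tested against those of all regions. The median log2 change of the fold, starved minus normal, was -0.08 in replicate 1 and 0.04 in replicate 2, against -0.06 and 0.08 over all 6531 regions.

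**Figure D4:**
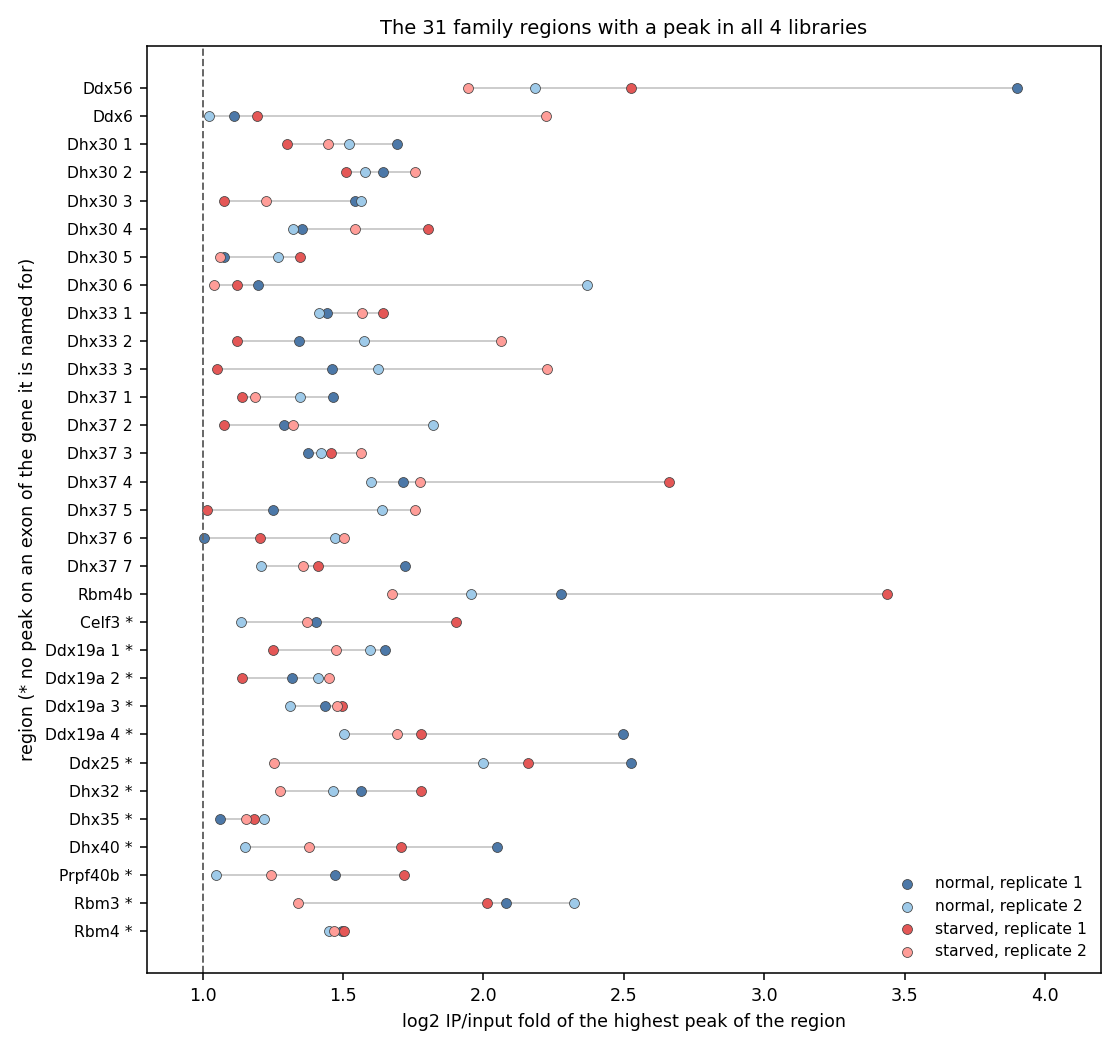
Log2 IP/input fold of the highest peak in each of the 31 family regions with a peak in all 4 libraries (points, blue normal and red starved; the grey line spans the 4 libraries), with the threshold of 2-fold as a dashed line. The normal and starved points of most regions are interleaved, and regions of 1 gene are numbered by position.

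None of the regions of Dhx30 and Dhx37 passed a test of change. Where a region holds several peaks of 1 library, the fold given is that of its highest peak unless all its reads are named. The largest Dhx30 region, over the 3' part of the gene (chr9:110084221-110088920), had 2483 and 2423 IP reads over 754 and 901 input reads in normal libraries and 5406 and 4158 over 945 and 1023 in starved libraries. Scaled for the libraries, all these reads gave folds of 2.66 and 2.69 in normal cells and 2.45 and 2.71 in starved cells, and the groups overlapped. Its highest peaks had folds of 3.23 and 2.87 in normal cells and 2.46 and 2.72 in starved cells. The neighbouring coding region printed above (chr9:110092631-110093360) had folds of 2.56 and 2.5 in normal cells and 3.49 and 2.91 in starved cells, with a log2 change of the ratio of 0.30 ± 0.24 (SE) in edgeR. A smaller region between them (chr9:110092111-110092630) had folds of 2.91 and 2.96 in normal cells and 2.11 and 2.34 in starved cells. A further Dhx30 region (chr9:110114851-110115300) had 2.30 and 5.17 in normal cells and 2.18 and 2.06 in starved cells. Its log2 change of -1.33 in replicate 2 was the lowest of the 31 regions there. The 5.17 rested on 31 IP reads over 6 input reads. Regions of the same mRNA thus lay on opposite sides of no change, and none passed the test. In Dhx37, the region printed above (chr5:125424401-125425920) had folds of 3.28 and 3.03 in normal cells and 6.32 and 3.42 in starved cells, where the 6.32 was the highest of any Dhx37 peak and was not matched in replicate 2. Over all reads of that region the folds were 2.32 and 2.65 in normal cells and 3.6 and 2.73 in starved cells.

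Other regions that moved the same way in both replicates were mostly on neighbours of the named genes. The Snx27 region (named Celf3) had folds of 2.65, 2.20, 3.74 and 2.59 in normal replicates 1 and 2 and starved replicates 1 and 2. The Fmnl3 region (named Prpf40b) had 2.77, 2.07, 3.29 and 2.37. The Cdon region (named Ddx25) had 5.76, 4.0, 4.47 and 2.38, on 7 to 26 input reads. The Ddx56 region had 14.9, 4.54, 5.75 and 3.85, and the region held 12 input reads in normal replicate 1. In each of these 4 regions the normal and the starved values overlapped, and the edgeR test of the ratio did not pass.

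**Figure D5:**
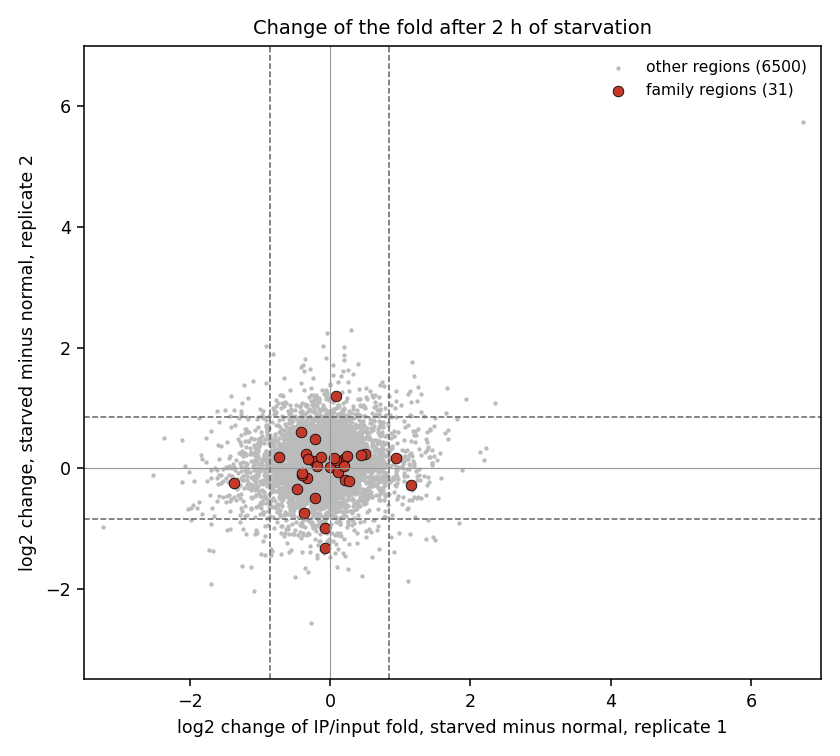
Log2 change of the IP/input fold, starved minus normal, in replicate 1 (x axis) and replicate 2 (y axis), for 31 family regions (red) and the other regions with a peak in all 4 libraries (grey), with dashed lines at a 1.8-fold change. No red point lies beyond both lines in the same direction.

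Presence and absence of peaks leaned to starved cells, as the longer starved lists did. A peak in both starved and neither normal library was found in 17 of 291 member regions (5.84%), against 4.7% of all 39979 regions, and the reverse in 3, against 1.3%. Of the 17, 3 each lay on Ddx11 and Dhx38, 2 each on Prpf4 and Rbm19, and 1 each on Ddx6, Dhx30, Dhx37 and Rbm4, all on own exons. The other 3 lay on Adam12, on Fmnl3 and outside exons near Dhx40. The 3 regions seen only in normal cells lay on Cdon, Adam12 and Fmnl3. The largest of the starved set were the Adam12 region with 1041 and 1069 IP reads at folds of 2.64 and 2.56, a Dhx30 exon (chr9:110098491-110099080) with 336 and 261 at 2.72 and 3.62, the 5' end of Ddx6 (chr9:44604601-44605230) with 251 and 332 at 2.07 and 2.17, Rbm19 with 177 and 163 at 2.37 and 2.36, and a Dhx38 region (chr8:109556041-109556650) with 220 and 100 at 2.42 and 2.22. These folds lay between 2.07 and 3.62, and the lists give no values for the normal libraries at these places.

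Peaks on a gene's exons and named for it were also counted by gene. Of 48 family genes, 6 had more such peaks in both starved than in both normal libraries, and 1 had fewer. The shares over all 5890 genes with such peaks were 11.6% and 2.55%. The 6 were Ddx11, Ddx56, Dhx37, Dhx38, Prpf4 and Rbm19, and the 1 was Rbm12b2, with 1 and 1 peaks in normal and 0 and 0 in starved libraries. Ddx56 had 0 and 0 such peaks in normal and 1 and 1 in starved libraries. Its region had a peak in all 4 libraries, but only the starved peaks reached its exons. Peaks on a gene's exons under another name were left out of these counts. In normal libraries, peaks of any name touched 1 and 4 of 14 exons of Prpf4 and 10 and 8 of 24 of Rbm19. Of the library's target peaks, member peaks on own exons made up 0.380% and 0.305% in normal cells and 0.450% and 0.393% in starved cells. With peaks counted as shares of each list's target peaks, a setting chosen after seeing the data, 5 family genes had more and 4 had fewer. The matching shares over all genes were not counted, so that these are not set against a background. The starved lists held more target peaks and more IP reads, and the part of this in the counts was not tested.

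The place of member peaks on the transcript was described for those on own exons. Of 334 peaks on own exons, 75.7% touched the coding sequence, 9.88% covered the start codon, 5.69% covered the stop codon and 8.38% lay wholly past the stop codon. The shares over all 47029 such peaks were 77.0%, 14.8%, 6.06% and 9.77%. The start codon share of the members was 12.1% ± 6.5 in normal and 8.49% ± 1.1 in starved libraries (SD, n = 2), against 15.1% ± 2.0 and 14.7% ± 1.7. The stop codon was covered in 3 libraries in Ddx11, Dhx30, Hnrnpa0, Rbm4 and Rbm4b. By the deposited annotation, 21.4% ± 2.5 of all member peaks were in introns in normal and 21.6% ± 1.4 in starved libraries, against 19.1% ± 1.3 and 20.5% ± 2.1 of all target peaks, and 44.1% ± 1.1 and 45.5% ± 2.9 were in exons, against 47.9% ± 4.3 and 47.1% ± 6.7.

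Other splicing and RNA-binding genes outside the families were also examined. Of 47 such genes, 19 had an exon peak, against 31% of all protein-coding genes. Peaks in all 4 libraries were found in 8, against 14.1% of all protein-coding genes. These 8 were Snrnp200, Son, Clk3, Ptbp3, Elavl1, Acin1, Luc7l and Upf1. Regions with a peak in all 4 libraries touched Clk3, Elavl1, Luc7l, Ptbp1 and Upf1, and Ptbp1 only through its peak in starved replicate 2. Of these 5, 0 passed an edgeR test, with an adjusted p of 0.999 for the ratio, where 0.0153% of all regions were higher and 0% lower. Elavl1, which stabilizes mRNAs with AU-rich elements, had region folds of 5.48 and 2.95 in normal and 6.26 and 6.22 in starved cells, and Upf1, the helicase of nonsense-mediated decay, 2.34, 2.34, 2.53 and 2.34. As a check of the cell type, 4 of 10 fibroblast markers carried peaks, with Pdgfrb at 24095 to 47397 IP reads in each library, and Col1a1 and Vim had none. The 4 epithelial, 3 blood, 2 neural and 2 muscle markers had none, and of 3 endothelial markers Kdr had 29 to 89 IP reads.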

How the data were processed

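Reads were trimmed and mapped to mm10 by the authors (TopHat2 2.0.13, per the labels), who called peaks against input with diffReps and named them with HOMER. The values the authors deposited are a signal in 3 lists, reads times 1 factor per library, and counts in the list of normal replicate 2, beside a log2 ratio and a p-value per peak. Whole reads were recovered by the factor (100% of values within 0.1 read). Target peaks that overlap by 1 bp were merged with bedtools 2.31.1, and exons came from GENCODE vM21. The edgeR 4.0.16 tests took the regions present in every list, with DESeq2 1.42.0 as an alternative and Benjamini-Hochberg adjustment over all 6531, after tests on simulated data. Copies of at least 150 bp and 95% identity were sought with blastn 2.17.0. The lists do not name their input, and the input of the same replicate is assumed.

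The members, gene lists and tests were chosen with earlier results of these data known. Genes were named by a fixed rule: the highest fold and most peaks per family, the largest changes in both replicates, the largest regions seen in 1 condition, and 58 genes listed by role. A gene of the families is not reported here by name.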

Additional observations from a re-analysis of the deposited data

How the results depend on the processing

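At a fold of at least 4, the 31 member regions in all 4 libraries fell to 0 (344 of 21354 regions over the whole series), the 17 regions seen only in starved cells to 5, and the share of member peaks in introns rose to 31.8%. With 50% reciprocal overlap, 14 regions were in all 4 libraries. With members chosen by exon overlap, no region was seen only in normal cells. With 1 replicate left out, each condition rested on 1 library. Then 65 to 68 member regions were in all remaining libraries, 86 to 90 only in starved cells and 45 to 51 only in normal cells. Apart from the 344 of 21354, matching counts over all regions were not made at a fold of at least 4 or with 50% reciprocal overlap. Nor were they made with 1 replicate left out, including for the 1.8-fold changes that follow. Of the 31, 1 to 2 were at least 1.8-fold higher and 1 to 2 lower, and the median log2 change ranged from -0.076 to 0.039. Leaving out single libraries, the edgeR tests gave 0 to 1 lower region for IP reads per base and 0 to 1 higher and 0 to 1 lower for input. The 1 lower region in both was Ddx6 without starved replicate 1 (adjusted p = 0.00013 and 6.0e-20), where starved replicate 2 has the 21-read peak, and the 1 higher was Ddx56 without normal replicate 2 (adjusted p = 0.0070). Chosen after seeing the data, a fold of at least 4 gave 4 family genes with more and 0 with fewer own peaks in both starved libraries. Counts as shares of each list gave 5 with more and 4 with fewer, where the main count gave 6 and 1. Neither setting was counted over all genes. Whether the replicate number pairs the libraries is undecided (r = 0.27 across 6531 regions between the normal and the starved difference of replicates 1 and 2, with only 2 pairs), and with a replicate block 0 of 31 regions passed for the ratio, IP or input, although the block raised the calls over all regions to 321 higher and 329 lower for IP reads. DESeq2 gave 67 and 113 for IP reads over all regions, where edgeR gave 12 and 61. The cause of these differences was not tested. Depth limits regions with few reads: 12.0% to 20.8% of member folds are lower bounds.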
